A study of Mus musculus with 12 samples.

Results

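The 10 genes described here belong to the response of cells to stress in the endoplasmic reticulum and to amino acid shortage. They are Atf4, Atf3, Ddit3, Xbp1, Trib3, Ddit4, Sesn2, Asns, Chac1 and Hspa5. They were taken by symbol from a count table of mouse retinal mRNA that lists 35976 genes, and each of the 10 is in it. Their levels were described over 12 libraries, 3 in each of 4 groups.

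Unfolded protein in the endoplasmic reticulum (ER) is sensed by PERK, IRE1 and ATF6. PERK, like the related kinases GCN2, PKR and HRI, phosphorylates eIF2alpha, which slows protein synthesis as a whole but favours translation of the Atf4 mRNA, and the ATF4 protein then raises transcription of stress genes such as Ddit3, Trib3, Asns and Chac1. IRE1 splices the Xbp1 mRNA into the form that encodes an active factor, and ATF6 raises ER chaperones such as Hspa5. In the retina this response is known from photoreceptors and ganglion cells under stress, and the ischaemic retina also induces genes of the hypoxia pathway, to which Ddit4 belongs. The assay counted reads at the 3' end of mRNA. It therefore measured neither the ATF4 protein nor the splicing of Xbp1.

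The libraries labelled WT came from retinas of C57BL/6 pups at postnatal day 15. The WT OIR group (oxygen-induced retinopathy, a model in which high oxygen first removes retinal capillaries and the return to room air then leaves the tissue hypoxic) had been in 75% oxygen from postnatal day 7 to 12 and in room air for 3 days, and the WT normoxia group had stayed in 21% oxygen. The groups labelled Casp1 KO are titled as knockouts of caspase 1, an inflammatory protease, in normoxia and 3 days post OIR. Their allele, strain, age and oxygen level are not given in the sources used here. The number of animals in each library is not stated either, so p-values measure the spread between libraries, which may be partly technical.

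Total counts lay between 3391203 and 5657873 in 11 libraries, and WT normoxia replicate 2 held 22815830. A limit of 3 counts corresponded to 0.134 CPM (counts per 1000000, scaled by the TMM method over all libraries) in that deepest library and to 0.871 CPM in the shallowest, and it covers counting error only. Casp1 itself had 7 counts over the 6 libraries labelled WT and 126 over the 6 labelled Casp1 KO, which goes against the labels. Since the allele is not stated, it is not known whether the 3' reads of Casp1 lie in the deleted part or the genotype labels are exchanged. Groups are therefore named as labelled throughout, and every direction between genotypes holds for the labels only. Markers of rods, cones, Muller glia, bipolar, amacrine and ganglion cells were present in every group. The number of all genes that differed between OIR and normoxia in WT, 586, went to 1031 and 325 with WT OIR replicate 3 and replicate 2 left out, and to 232, 268 and 231 without WT normoxia replicate 1, 2 and 3. The number that differed between the genotypes in OIR, 16, went to 719 and 1 with WT OIR replicate 3 and replicate 2 left out, and to 0 without any of the 3 Casp1 KO OIR libraries.

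The 5' ends of the genes hold short sequences through which these pathways are known to act. The 250 bases before each RefSeq start site (GRCm38.p6) were searched on both strands for CARE (TGATGNAA, the C/EBP-ATF response element bound by ATF4), for the ER stress response element ERSE, for UPRE (TGACGTGG, bound by XBP1 and ATF6) and for HRE (ACGTG, the core of the hypoxia response element, whose letters are also within the UPRE). CARE was found at 3 of the 10 genes, against 3.45% of 32851 such windows, ERSE at 1 against 0.113%, UPRE at 0 against 0.563%, and HRE at 3 against 16.6%. The matches below are shown with the motif in capitals and on the strand of the gene. They were chosen because they fall at an amino acid synthesis gene, a transcription factor, a glutathione-degrading enzyme, the main ER chaperone and Ddit4. Ddit4 was picked for its rise in OIR in the libraries labelled Casp1 KO, and it was not called in WT. The HRE matches of Asns and Hspa5 are not shown.
Asns CARE: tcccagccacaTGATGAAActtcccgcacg
Atf3 CARE: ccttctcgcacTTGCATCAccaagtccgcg
Chac1 CARE: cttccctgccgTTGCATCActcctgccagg
Hspa5 ERSE: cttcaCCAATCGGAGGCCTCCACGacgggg
Ddit4 HRE: agaacgttgcgaACGTGcgcccggtgccta
The Asns window lies at chr6:7693214-7693243 on the minus strand, in a stretch that GENCODE annotates as an exon of Asns. The Atf3 window is at chr1:191183425-191183454 on the minus strand, in an intron of a longer annotated form of Atf3, and the Chac1 window at chr2:119351038-119351067 on the plus strand, upstream of the annotated gene. In Atf3 and Chac1 the motif reads on the opposite strand. The Hspa5 window is at chr2:34772020-34772049 on the plus strand, in an annotated exon, and the Ddit4 window at chr10:59951940-59951969 on the minus strand, upstream of the gene. Asns and Hspa5 also held an HRE match, and Atf4, Ddit3, Trib3, Sesn2 and Xbp1 held no match of any of these motifs in this window. A match describes these letters only.

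Across the 10 genes, OIR in the libraries labelled WT gave no change past the threshold, an adjusted p under 0.05 in edgeR's quasi-likelihood test, in any of the 9 that could be tested. In the libraries labelled Casp1 KO, Ddit4, Trib3 and Atf4 rose in OIR. Between genotypes in normoxia, Hspa5 was lower in Casp1 KO. The comparisons share libraries (those of WT normoxia enter both OIR against normoxia in WT and Casp1 KO against WT in normoxia, for example) and are not independent of each other. As whole retinas were sequenced, fewer cells of a type and less RNA per cell cannot be told apart.

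**Figure D1:**
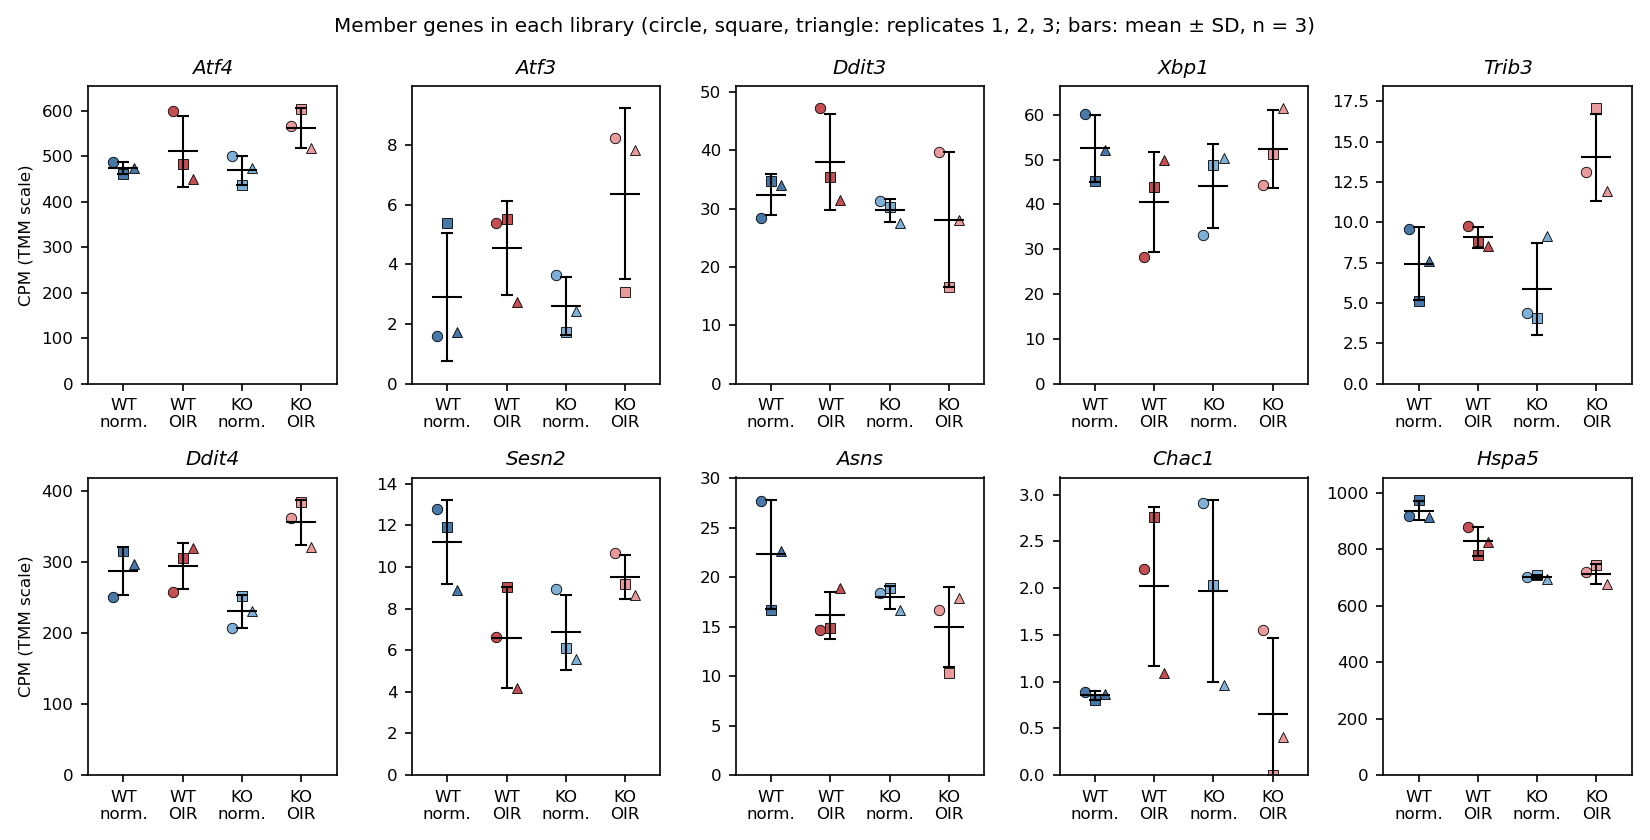
Levels of the 10 genes in each library, in CPM on the TMM scale with an axis from 0 in every panel. Points are libraries (circle, square and triangle for replicates 1, 2 and 3) in normoxia and OIR of each genotype as labelled, and the bars give the mean and SD of 3 libraries. Ddit4 and Trib3 stand highest in Casp1 KO OIR (means of 356 and 14.04 CPM), and Hspa5 is highest in WT normoxia (936 CPM).

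Atf4 encodes the transcription factor at the centre of the eIF2alpha branch (chr15:80255184-80257541, plus strand, no overlapping gene). It was at 487, 460 and 473 CPM in WT normoxia and at 599, 484 and 450 CPM in WT OIR. WT OIR replicate 1 was above all 3 normoxic libraries, replicate 2 was within their range, and replicate 3 was below them. The fitted log2 fold change was 0.11 (SE 0.119, adjusted p = 0.7126), with a 95% confidence interval from -0.14 to 0.36. In Casp1 KO it was at 499, 436 and 473 CPM in normoxia and at 567, 604 and 517 CPM in OIR. Here the groups did not overlap, and Atf4 rose by 0.26 on the log2 scale (SE 0.0752, adjusted p = 0.02305), a 1.20-fold increase. This call was lost in a fit of all 12 libraries (adjusted p = 0.1897) and without any of Casp1 KO normoxia replicate 2 (0.1677) or 3 (0.09479) or Casp1 KO OIR replicate 1 (0.07749) or 2 (0.1078). The genotypes had nearly the same mean in normoxia, 473 ± 13.1 CPM (SD, n = 3) in WT and 469 ± 31.8 CPM (SD, n = 3) in Casp1 KO.

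Atf3 and Ddit3 are stress transcription factors downstream of ATF4. Atf3 (chr1:191170296-191218039, minus strand) is an immediate stress-response gene, and it had only 6 to 121 counts per library. Its level was 1.60, 5.38 and 1.74 CPM in WT normoxia, where the deepest library was about as high as OIR, and 5.39, 5.52 and 2.73 CPM in WT OIR. In Casp1 KO it was 3.65, 1.74 and 2.41 CPM in normoxia and 8.23, 3.07 and 7.82 CPM in OIR. Both pairs of groups overlapped. The fitted changes in OIR were 0.55 in WT (SE 0.606, adjusted p = 0.7189) and 1.25 in Casp1 KO (SE 0.560, adjusted p = 0.1888), and neither passed the threshold. It reached the minimum of the filter on low counts in all 3 libraries of each OIR group, but in 1 of 3 in WT normoxia and 2 of 3 in Casp1 KO normoxia. The 95% confidence intervals ran from -0.72 to 1.82 and from 0.12 to 2.39.

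Ddit3 encodes CHOP, a factor linked to cell death under lasting ER stress. It lies at chr10:127290774-127296288 on the plus strand, where another Ddit3 entry is annotated on the same strand and Mars and Gm4189 on the other. Whether reads were counted by strand is not given in the sources used here, so reads of the overlapping genes cannot be told apart from those of Ddit3. It was at 28.4, 34.7 and 34.1 CPM in WT normoxia and at 47.3, 35.3 and 31.4 CPM in WT OIR. In Casp1 KO, normoxic libraries lay close together at 31.4, 30.2 and 27.5 CPM, and those of OIR spread over 39.8, 16.6 and 28.0 CPM. The fitted changes in OIR were 0.22 in WT (SE 0.197, adjusted p = 0.6312) and -0.08 in Casp1 KO (SE 0.222, adjusted p = 0.8906). The library with 16.6 CPM, Casp1 KO OIR replicate 2, turned the sign of the latter, which was 0.19 without it.

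Xbp1 encodes the factor that IRE1 activates (chr11:5520659-5525893, plus strand). It was at 60.2, 45.2 and 52.2 CPM in WT normoxia and at 28.2, 43.8 and 49.8 CPM in WT OIR, and at 33.2, 48.8 and 50.2 CPM in Casp1 KO normoxia and 44.2, 51.2 and 61.5 CPM in Casp1 KO OIR. The groups overlapped in both genotypes. The fitted change was -0.36 in WT (SE 0.200, adjusted p = 0.3918) and 0.26 in Casp1 KO (SE 0.172, adjusted p = 0.4196). The difference between these effects was 0.61 (SE 0.279, unadjusted p = 0.03781, adjusted p = 0.3692).

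Among the effector genes, Trib3 encodes a pseudokinase that ATF4 and CHOP induce and that in turn restrains them (chr2:152337422-152344032, minus strand). It was at 9.59, 5.12 and 7.61 CPM in WT normoxia and at 9.80, 8.84 and 8.54 CPM in WT OIR. In Casp1 KO normoxia it was at 4.38, 4.07 and 9.18 CPM, and in Casp1 KO OIR at 13.1, 17.1 and 11.9 CPM. All 3 libraries of Casp1 KO OIR were above all 9 others. Trib3 rose by 1.26 on the log2 scale in Casp1 KO (SE 0.360, adjusted p = 0.02148), or 2.39-fold, on 76 counts in normoxia and 195 in OIR. In WT the fitted change was 0.31 (SE 0.371, adjusted p = 0.7450). The call in Casp1 KO was lost without Casp1 KO normoxia replicate 1 (adjusted p = 0.1122) or 2 (0.09931) or Casp1 KO OIR replicate 2 (0.1328), and in the fit of all 12 libraries (0.05654).

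Ddit4, also called REDD1, encodes an inhibitor of mTORC1 that is induced by ATF4 and by the hypoxia-inducible factors (chr10:59949669-59951834, minus strand). In WT it was at 251, 316 and 297 CPM in normoxia and at 257, 306 and 320 CPM in OIR, so that the groups covered nearly the same range. The log2 fold change was 0.03 (SE 0.126, adjusted p = 0.9388), with an interval from -0.23 to 0.30. In Casp1 KO it was at 208, 253 and 231 CPM in normoxia and at 362, 385 and 321 CPM in OIR. Every Casp1 KO OIR library was above every library of the other 3 groups. The rise was 0.63 on the log2 scale (SE 0.0885, adjusted p = 1.69e-06), or 1.55-fold, and it stayed past the threshold under all 11 alternative fits, at 0.55 to 0.71.

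The difference between the effect of OIR on Ddit4 in Casp1 KO and in WT was 0.59 (SE 0.160), and it did not pass the adjusted threshold (unadjusted p = 9.26e-04, adjusted p = 0.0668). It passed under 4 of 16 alternatives, among them DESeq2 (adjusted p = 0.03495), a filter of at least 1 count (0.01683) and the fit without WT OIR replicate 3 (0.003869). Ddit4 averaged 231 ± 22.7 CPM (SD, n = 3) in Casp1 KO normoxia against 288 ± 33.6 CPM (SD, n = 3) in WT normoxia. It averaged 356 ± 32.3 CPM (SD, n = 3) in Casp1 KO OIR against 294 ± 32.8 CPM (SD, n = 3) in WT OIR. Neither of these differences between genotypes passed the threshold, with log2 fold changes of -0.31 (adjusted p = 0.07495) in normoxia and 0.28 (adjusted p = 0.4416) in OIR. The former did pass without WT normoxia replicate 1 (adjusted p = 0.02748) and with all genes of at least 1 count (0.02703).

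Sesn2 encodes sestrin 2, a stress-induced leucine sensor that lowers mTORC1 activity (chr4:132492032-132510501, minus strand, with the antisense-type gene Gm12981 annotated on the same strand). It was at 12.8, 11.9 and 8.91 CPM in WT normoxia and at 6.61, 9.02 and 4.18 CPM in WT OIR. In Casp1 KO it was at 8.93, 6.10 and 5.55 CPM in normoxia and at 10.7, 9.20 and 8.64 CPM in OIR. The fitted change in OIR was -0.77 in WT (SE 0.365, unadjusted p = 0.04955, adjusted p = 0.2893) and 0.45 in Casp1 KO (SE 0.374, adjusted p = 0.5381). The difference between the effects was 1.22 (SE 0.501, unadjusted p = 0.02132, adjusted p = 0.2926).

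Asns encodes asparagine synthetase, a classical target of ATF4 in amino acid shortage (chr6:7675169-7693254, minus strand). It was at 27.7, 16.7 and 22.6 CPM in WT normoxia and at 14.7, 14.9 and 18.9 CPM in WT OIR. In Casp1 KO it was at 18.4, 18.9 and 16.7 CPM in normoxia and at 16.7, 10.3 and 17.9 CPM in OIR. The groups overlapped in both genotypes, and the fitted changes of -0.45 (SE 0.255, adjusted p = 0.3993) and -0.26 (SE 0.265, adjusted p = 0.6304) did not pass the threshold. Over both genotypes Asns averaged 20.2 CPM in normoxia and 15.6 CPM in OIR (log2 fold change -0.36, adjusted p = 0.2681).

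Chac1 encodes a glutathione-degrading enzyme that is induced through ATF4 (chr2:119351229-119354381, plus strand). It was close to the limit of detection, with 5, 18 and 4 counts in WT normoxia, 9, 15 and 6 in WT OIR, 16, 7 and 4 in Casp1 KO normoxia and 7, 0 and 2 in Casp1 KO OIR. It failed the filter on low counts in the 4 comparisons of 2 groups. In CPM, the WT OIR libraries (2.20, 2.76 and 1.09) were above those of WT normoxia (0.888, 0.801 and 0.870), with an exact two-sided permutation p of 0.1, the smallest that 3 against 3 libraries allow. With all genes of at least 1 count in the fit, the log2 fold change was 1.22 in WT (SE 1.12, adjusted p = 0.6693) and -1.55 in Casp1 KO (SE 1.16, adjusted p = 0.5797), so no change was detectable at this depth.

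Hspa5 encodes BiP, the chief chaperone of the ER lumen and a standard readout of ATF6 activity (chr2:34771970-34777547, plus strand). It was at 918, 975 and 914 CPM in WT normoxia and at 877, 777 and 826 CPM in WT OIR. Every WT OIR library was below every WT normoxic one, but the fitted change of -0.18 (SE 0.102) did not pass the threshold (adjusted p = 0.4046). In Casp1 KO the normoxic libraries were at 702, 707 and 694 CPM and those of OIR at 719, 743 and 675 CPM, with a log2 fold change of 0.02 (SE 0.0679, adjusted p = 0.8955) and an interval from -0.11 to 0.16. In normoxia Hspa5 was lower in Casp1 KO than in WT, with a log2 fold change of -0.40 (SE 0.0610, adjusted p = 4.45e-05), or 0.757 of the WT level. This call held under all 11 alternatives. In OIR the difference between genotypes was -0.21 (SE 0.106, adjusted p = 0.5070), although the groups did not overlap.

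**Figure D2:**
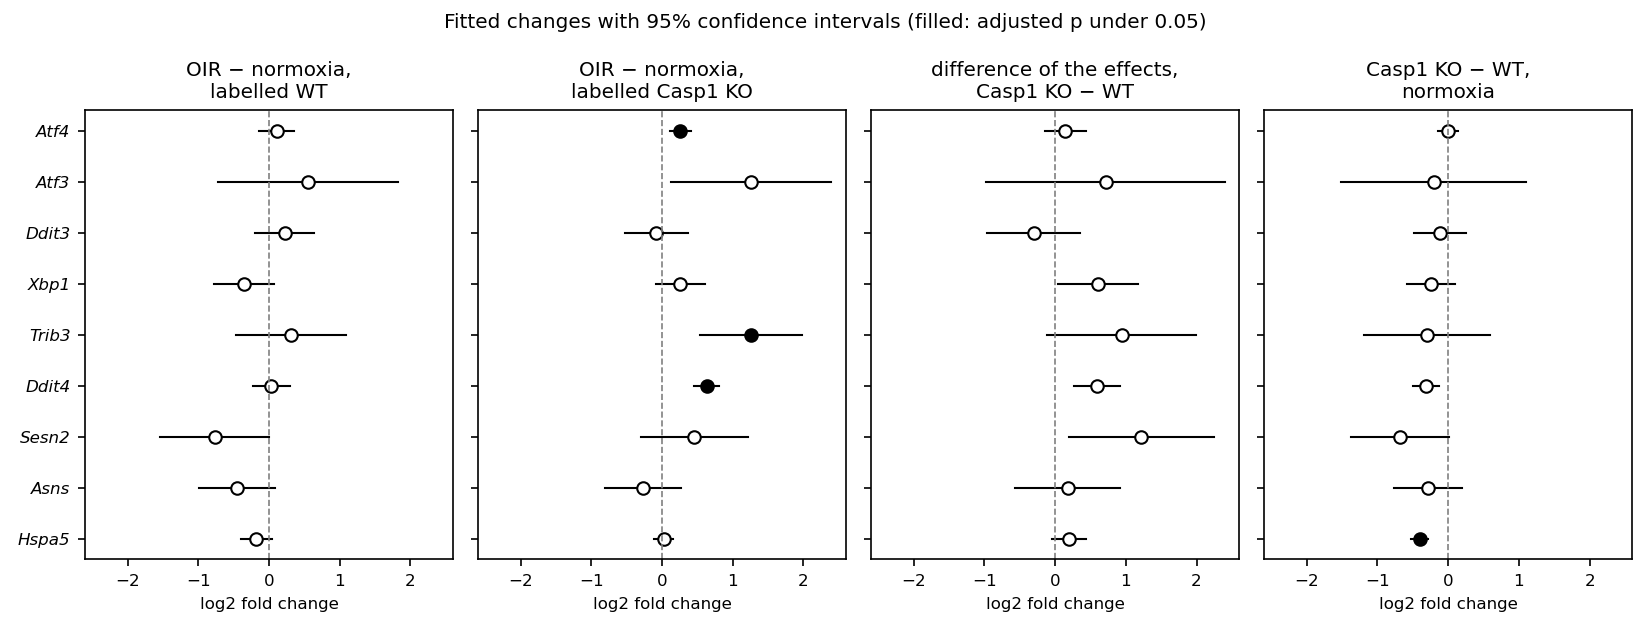
Fitted log2 fold changes of the 9 genes tested in every comparison, as points with 95% confidence intervals, for OIR against normoxia in WT and in Casp1 KO, for the difference between those effects, and for Casp1 KO against WT in normoxia. Filled points have an adjusted p under 0.05: Ddit4 (0.63), Trib3 (1.26) and Atf4 (0.26) in Casp1 KO, and Hspa5 (-0.40) between genotypes in normoxia.

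In the libraries labelled WT, 0 of 9 tested genes were called in OIR, against 4.28% of all 13696 genes tested, a share at which a count of 0 among 9 is near the background. Of the 9, 1 (Sesn2) had an unadjusted p under 0.05. DESeq2 also called 0. Their median log2 fold change was 0.03, beside 0.01 over all genes, with 5 fitted higher and 4 lower and values from -0.77 (Sesn2) to 0.55 (Atf3). Of the 9, Hspa5 alone did not overlap between the groups, which held for 23.2% of all genes.

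In the libraries labelled Casp1 KO, 3 of 9 were called in OIR, each of them higher, against 7.94% of 13228 genes called in either direction and 4.17% called higher. A further gene, Atf3, had an unadjusted p under 0.05 (0.0306), with overlapping groups. It reached the minimum of the filter in all 3 OIR libraries but in only 2 of 3 in normoxia, so this p is a description. The groups did not overlap for the same 3 genes, against 24.8% of all genes, and the median log2 fold change was 0.26, beside 0.00 over all genes. The count went to 1 (Ddit4) in the fit of all 12 libraries and without Casp1 KO normoxia replicate 2 or Casp1 KO OIR replicate 2. Casp1 KO OIR replicate 2 held the highest level of Ddit4, Trib3 and Atf4 among all 12 libraries, and the lowest of Ddit3, Asns and Chac1.

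Markers of other cells moved in the same libraries. All 4 markers of Muller glia, the radial glia of the retina, rose in Casp1 KO OIR, with a summed level of 1622 to 1774 CPM in normoxia and 2391 to 2639 CPM in OIR. Of the lens markers 4 of 5 rose, from 359 to 373 CPM in normoxia to 601 to 693 CPM in OIR, as did 3 of 4 of the retinal pigment epithelium, from 684 to 719 CPM to 1035 to 1103 CPM. Ganglion cell markers went the other way in both genotypes, with 2 of 4 lower in each. In WT their summed level was 539 to 590 CPM in normoxia and 371 to 449 CPM in OIR. There 2 of 4 Muller glia markers fell and 2 of 5 red blood cell markers rose in OIR. In WT, 1 marker each of cones, bipolar cells, amacrine cells and retinal pigment epithelium was lower, and 1 of microglia and macrophages higher. In Casp1 KO OIR, 2 rod markers were higher and 1 lower, 1 cone marker was higher and 1 lower, and 1 of microglia and macrophages was higher. Lens markers covered 382 to 444 CPM in WT normoxia and 221 to 489 CPM in WT OIR with none called. No marker of these lists was at 0 in any group. The part of these cells in the levels of Ddit4, Trib3 and Atf4 was not tested.

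Between genotypes in normoxia 1 of 9 genes was called, Hspa5, against 1.31% of 13387 genes in either direction and 0.665% called lower. It was also the only one of the 9 without overlap, against 16.9% of all genes. The fitted change was below 0 for 8 of the 9, with a median of -0.28 beside 0.00 over all genes. Muller glia markers were lower in Casp1 KO here, with 3 of 4 called and 2310 to 2462 CPM in WT normoxia. Also called were 1 marker each of bipolar and amacrine cells, which were lower, and 1 of rods, which was higher. The part of these cells in the level of Hspa5 was not tested. In OIR 0 of 9 genes were called between genotypes by edgeR, against 0.119% of 13435 genes, and 0 by DESeq2, which gave no adjusted p for Atf3, Sesn2 and Trib3, and 2 (Ddit4 and Trib3) had an unadjusted p under 0.05. Ddit4 and Trib3 were higher and Hspa5 lower in Casp1 KO OIR without overlap, which is 3 of 9 against 16.3% of all genes.

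The test of whether the effect of OIR differed between genotypes called 0 of the 10 genes with edgeR, against 0.973% of 14287 genes, and 1 (Ddit4) with DESeq2. At an unadjusted p under 0.05 there were 3 (Ddit4, Sesn2 and Xbp1). The same test called 3 of 4 Muller glia markers (median 0.88) and 2 of 4 of the retinal pigment epithelium. It also called 1 marker each of lens, bipolar cells and amacrine cells, and all of these had a positive difference. The part of these cells in the differences for Ddit4, Sesn2 and Xbp1 was not tested. With both genotypes fitted together, OIR against normoxia called 1 of 10, against 7.66% of all genes, a count near the background. The median log2 fold change of the 10 was 0.006, beside 0.003 over all genes, with 5 fitted higher and 5 lower. The gene called was Ddit4, which rose by 0.32 on the log2 scale (SE 0.101, adjusted p = 0.04832). The call was lost without WT normoxia replicate 1 (adjusted p = 0.08846) and without any of the 6 libraries labelled Casp1 KO (0.07885 to 0.1650). Without WT OIR replicate 3, Atf4 was called as well (0.04001), and without WT normoxia replicate 1 Trib3 was (0.04322).

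Other genes of the pathway were taken from lists that leave out the 10 genes. Of 31 further ATF4 targets, 28 were tested in WT, and 1 rose in OIR and 0 fell, a count near the 4.28% of all genes called there, with a median log2 fold change of 0.04 beside 0.01 over all genes. In Casp1 KO 25 were tested, 4 were called higher, against 4.17% of all genes, and 0 lower, with a median of 0.29 beside 0.00 over all genes. The 4 include Stc2, which passed the filter only through the OIR libraries, where it was high. Its call is a description, so the count of 4 is not read against that share. The counts of the lists that follow stand against the same shares of all genes called in either direction, 4.28% for OIR in WT, 7.94% for OIR in Casp1 KO, 1.31% between genotypes in normoxia and 7.66% for OIR over both genotypes. The counts of the hypoxia-inducible genes are excepted, as stated with that list. Those called higher in Casp1 KO were Vegfa (0.94, SE 0.117, adjusted p = 1.15e-07), the main angiogenic growth factor of the hypoxic retina, Slc3a2 (0.63, SE 0.103, adjusted p = 2.75e-05) and Slc7a5 (1.24, SE 0.339, adjusted p = 0.0151), which form an amino acid transporter, and Stc2, a secreted glycoprotein. Slc7a5 is named after its value was seen, and its call was not checked under the alternative fits. Stc2 had 0 counts in all 3 libraries of Casp1 KO normoxia and 15, 13 and 18 in Casp1 KO OIR, at least 14.4-fold higher against 3 counts over the group. It passed the filter on low counts only through the OIR libraries, so its call is given as a description, and the median of the list is 0.29 with Stc2 at that bound too. Vegfa was also the gene that rose in WT (0.85, SE 0.154, adjusted p = 0.003554). The Slc3a2 call was lost in the fit of all 12 libraries (adjusted p = 0.05688).

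Between genotypes in normoxia, 22 of 26 tested ATF4 targets were fitted lower in Casp1 KO (median -0.22), but 0 were called by edgeR or DESeq2 and 3 had an unadjusted p under 0.05. With both genotypes together 3 targets were called higher in OIR and 1 lower. Those called higher were Stc2, which again passed the filter only through the OIR libraries (9 counts in WT normoxia, 0 in Casp1 KO normoxia), Vegfa (0.89, adjusted p = 5.79e-07) and Shmt2 (0.52, adjusted p = 0.04568), an enzyme of mitochondrial folate metabolism. The one that fell was Atf5, a transcription factor close to ATF4 (-0.46, adjusted p = 0.02865). Shmt2 stayed past the threshold under 7 of 16 alternatives and Atf5 under 11.

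The 12 aminoacyl-tRNA synthetases, which load amino acids onto tRNA and many of which ATF4 is known to raise, gave 0 calls with edgeR in OIR in either genotype, with medians of -0.17 in WT and -0.15 in Casp1 KO. An unadjusted p under 0.05 was reached by 3 of them in each genotype, and DESeq2 called 0 in WT and 1 in Casp1 KO. Of 13 genes for subunits of eIF2, eIF2alpha kinases, a phosphatase subunit and eIF2B, 0 were called in WT (0 with DESeq2 and 0 at an unadjusted p under 0.05) and 1 in Casp1 KO. This was Eif2s2, the beta subunit of eIF2, with a change of -0.32 (SE 0.0809, adjusted p = 0.008854), lost without Casp1 KO normoxia replicate 2, Casp1 KO OIR replicate 1 or 3, or in the fit of all 12 libraries. The UPR sensors and their proteases gave 0 calls in OIR among 8 tested genes in WT and 7 in Casp1 KO with either tool, and 0 had an unadjusted p under 0.05.

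The ER chaperones and folding enzymes other than Hspa5 moved in both directions. In WT 0 of 16 were called in OIR with edgeR (1 with DESeq2, 3 at an unadjusted p under 0.05). In Casp1 KO, P4hb, a protein disulfide isomerase, rose by 0.37 (SE 0.0940, adjusted p = 0.00849) and Hsp90b1, the ER form of HSP90, fell by 0.29 (SE 0.0751, adjusted p = 0.011). The median was 0.06, and both calls were lost without Casp1 KO normoxia replicate 2 and in the fit of all 12 libraries, and that of Hsp90b1 also without Casp1 KO OIR replicate 1. Between genotypes in normoxia edgeR called 1 of 16 and DESeq2 called 2, and 5 had an unadjusted p under 0.05 in edgeR. Of the 16, 11 were fitted lower in Casp1 KO and 5 higher. The gene called by edgeR was Calr, the calcium-binding chaperone calreticulin, which was lower in Casp1 KO beside Hspa5. Calr was at 650, 563 and 638 CPM against 736, 765 and 815 CPM in WT (log2 fold change -0.31, SE 0.0666, adjusted p = 0.006196). It was lost without WT normoxia replicate 3 (0.09277) or Casp1 KO normoxia replicate 2 (0.1202) and in the fit of all 12 libraries (0.1737). With both genotypes together Ero1l, the oxidase of ER disulfide formation, rose in OIR (0.83, SE 0.190, adjusted p = 0.005362) under all 16 alternatives.

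Genes of ER-associated degradation gave 0 calls of 11 in OIR in either genotype with edgeR or DESeq2, with 2 in WT and 1 in Casp1 KO at an unadjusted p under 0.05. Over both genotypes Vimp, a component of that pathway, was higher (0.27, adjusted p = 0.0458, kept in 5 of 16 alternatives). Of 10 relatives of the genes described here, 0 were called in WT by edgeR or DESeq2 (3 at an unadjusted p under 0.05) and 1 in Casp1 KO, Jdp2, a repressor of the AP-1 and ATF family (-0.61, adjusted p = 0.04389, kept in 2 of 11). Over both genotypes Jdp2 fell by 0.63 (SE 0.141, adjusted p = 0.00392) under all 16 alternatives, while Trib1 (0.35, adjusted p = 0.04144) and Atf7 (0.43, adjusted p = 0.04184) rose and were kept in 7 and 5 of them. Among stress-linked cell death genes 0 of 5 were called in WT by edgeR or DESeq2 (2 at an unadjusted p under 0.05). In Casp1 KO Gadd45b, a stress-inducible growth arrest gene, rose by 1.49 (SE 0.398, adjusted p = 0.01237), which was lost without Casp1 KO normoxia replicate 2 or 3 or Casp1 KO OIR replicate 2. Over both genotypes Gadd45b (1.28, adjusted p = 0.002761, under all 16 alternatives) and Bcl2l11, which encodes the death-promoting protein BIM (0.59, adjusted p = 0.0287, kept in 11 of 16), rose.

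The hypoxia-inducible genes were set beside these changes. All 8 tested in each genotype were fitted higher in OIR, with medians of 0.38 in WT and 0.66 in Casp1 KO, and 2 and 6 of them were called. In WT these were Vegfa and Egln3, a prolyl hydroxylase that HIF induces (2.22, SE 0.552, adjusted p = 0.02708, lost without WT normoxia replicate 2 or 3 or WT OIR replicate 1 or 2). Egln3 reached the minimum of the filter in every OIR library, but in 2 of 3 in WT normoxia and 1 of 3 in Casp1 KO normoxia. Its call in WT is therefore given as a description. The medians include Egln3, and the counts of 2 and 6 are not read against the shares of all genes. In Casp1 KO the smallest p-values belonged to Slc2a1, the glucose transporter GLUT1 (0.88, SE 0.0968, adjusted p = 7.71e-09), Vegfa, and Ndrg1 (0.42, SE 0.0747, adjusted p = 9.85e-05), all kept under the 11 alternatives. In WT Vegfa rose 1.81-fold, while Slc2a1 (means of 149 CPM in normoxia and 161 CPM in OIR) and Ddit4 were not called. The part of hypoxia in the level of Ddit4 was not tested. The list shares Vegfa with the ATF4 targets. Over both genotypes 7 of 9 were called higher, where 7.66% of all genes were called in either direction. The 7 include Adm, which passed the filter only through OIR libraries, so this count is not read against that share. The smallest p-values belonged to Vegfa, Adm and Egln3 (2.28, SE 0.461, adjusted p = 0.001601). Adm was not tested in either genotype alone. It had 0 counts in WT normoxia and 78 in WT OIR, and 7 in Casp1 KO normoxia and 57 in Casp1 KO OIR. It passed the filter only through OIR libraries, so its call is given as a description.

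**Figure D3:**
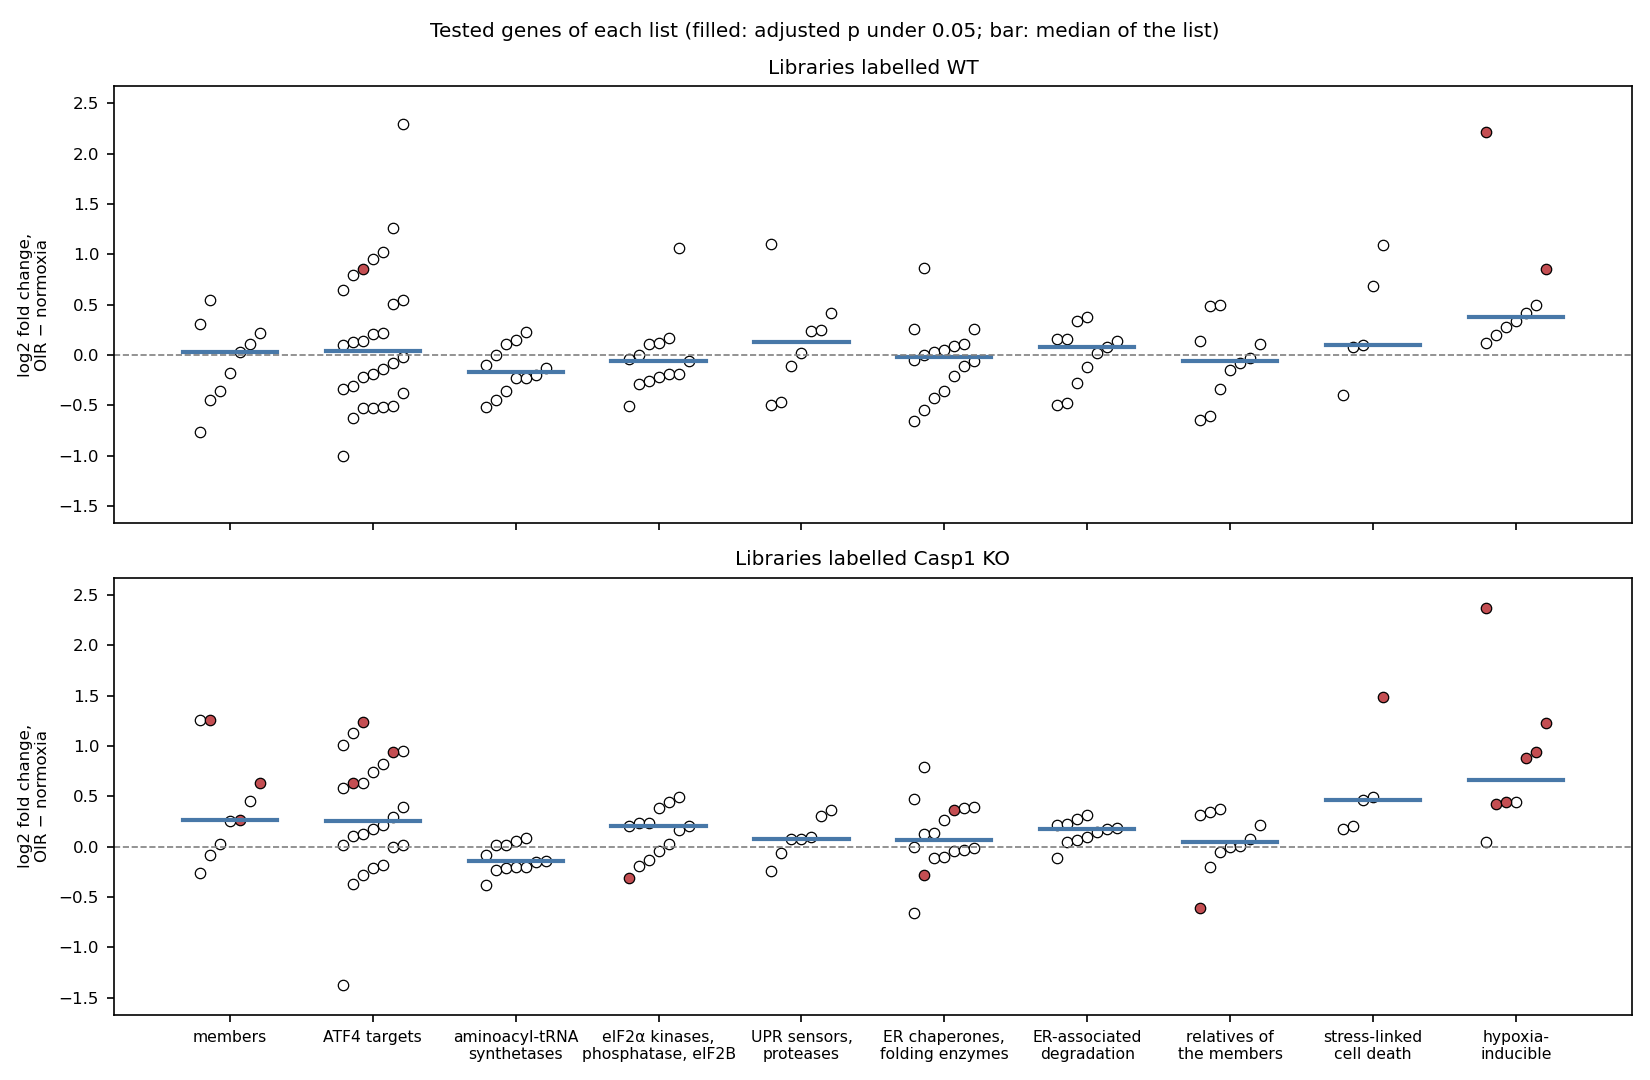
Fitted log2 fold changes in OIR against normoxia for the tested genes of each list, in the libraries labelled WT (top) and Casp1 KO (bottom). Each point is a gene, filled points have an adjusted p under 0.05, and the bar is the median of the points drawn. Stc2 in Casp1 KO is not drawn because it had no counts in normoxia. All tested hypoxia-inducible genes lie above 0 in both panels, while the medians of the 10 genes (members) are 0.03 and 0.26.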

How the data were processed

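Retinal mRNA of 12 libraries was sequenced by the authors as QuantSeq 3' libraries, and the deposited table holds whole-number counts of reads per gene symbol without normalization. STAR 2.7.5a, HTSeq 0.6.1, edgeR and the build mm10 are named in the submitters' processing notes. The strand setting is not given in the sources used here. The counts were fitted in R 4.3.3 with edgeR 4.0.16 (TMM, filterByExpr, glmQLFit and glmQLFTest, Benjamini-Hochberg adjustment over all genes tested, threshold 0.05). Each comparison of 2 groups used its own 6 libraries, and the interaction and the effect over both genotypes (genotype as covariate) used all 12. Each standard error is the fold change divided by the root of its F statistic. Alternatives were DESeq2's size factors, DESeq2 1.42.0, a filter of at least 1 count, a replicate block, a joint fit of all 12 libraries, and each library left out in turn. The fits were tested on simulated data. Positions are from GENCODE vM21 and promoters from RefSeq, both of GRCm38. The 10 genes, the lists and the motifs were chosen with earlier results of these data known. All 10 genes are reported, and of each list up to 3 genes each way with the smallest p among those past the threshold. Slc7a5 is named in addition to these.

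Depth was 3391203 to 22815830 counts per library. Groups are those of the sample labels.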

Additional observations from a re-analysis of the deposited data

Results flagged for a closer look

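Slc2a1, a hypoxia-inducible gene set beside the 10 genes, was flagged because its response to OIR differed between the genotypes by a test of that difference. The effect was larger in the libraries labelled Casp1 KO by 0.76 on the log2 scale (SE 0.179, adjusted p = 0.03359, edgeR's quasi-likelihood test). Slc2a1 was at 168, 131 and 147 CPM in WT normoxia, at 129, 170 and 183 CPM in WT OIR, at 114, 120 and 137 CPM in Casp1 KO normoxia and at 222, 228 and 231 CPM in Casp1 KO OIR. The call was kept under 8 of 16 alternatives, and it was lost without WT normoxia replicate 1 or 3, WT OIR replicate 1, Casp1 KO normoxia replicate 1 or 2, or any Casp1 KO OIR library (adjusted p of 0.05487 to 0.1251). None of the 10 genes met the same condition. Groups of 3 libraries are too small for the check for single outlying libraries.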

How the results depend on the processing

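The count of called genes among the 10 stayed at 0 for OIR in WT and for the genotypes in OIR under every alternative. In Casp1 KO the count of 3 went to 1 with all 12 libraries in 1 fit and to between 1 and 3 with a library left out. Between genotypes in normoxia the count of 1 went to 2 with a filter of at least 1 count and to between 1 and 2 with a library left out. For the difference between the effects the count of 0 went to 1 with DESeq2, with at least 1 count and with the replicate block, and to between 0 and 1 with a library left out. Over both genotypes the count of 1 went to between 0 and 2 with a library left out. The cause was not tested. Of log2 fold changes that changed sign, none was past the threshold. Over all alternatives, these ran from -0.021 to 0.19 (Atf4) and -0.062 to 0.12 (Ddit4) for OIR in WT. For OIR in Casp1 KO they ran from -0.41 to 0.19 (Ddit3) and -0.0095 to 0.061 (Hspa5). Between genotypes they ran from -0.041 to 0.045 (Atf4) and -0.53 to 0.67 (Atf3) in normoxia, and from -0.26 to 0.10 (Asns) in OIR. The range was -0.17 to 1.05 (Atf3) for the difference between the effects. Over both genotypes the ranges were -0.040 to 0.21 (Ddit3), -0.38 to 0.30 (Chac1), -0.30 to 0.011 (Sesn2) and -0.18 to 0.069 (Xbp1). Between genotypes in normoxia, Atf4 was also at -0.0055 with at least 1 count and Atf3 at 0.020 with the replicate block. Same-numbered libraries did not deviate together (correlations of -0.0283 to 0.0814 over 14293 genes, and -0.0946 to 0.0543 for other numbers, with 7 of 12 libraries closest to their own number), so the numbers were not taken as pairs. With the replicate block, the difference between the effects on Ddit4 was 0.59 with an adjusted p of 0.04753, and no other call among the 10 genes changed. DESeq2 gave no adjusted p for Atf3, Sesn2 and Trib3 between genotypes in normoxia or in OIR. Depth limits Chac1, with 0 to 18 counts per library, and to a lesser degree Atf3, Trib3 and Sesn2.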
